A study of Mus musculus with 4 samples.

Results

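The proteasome genes described here were all probe sets annotated to a single gene symbol that begins with Psma, Psmb, Psmc, Psmd, Psme, Psmf or Psmg followed by a number. The rule took 103 probe sets of 49 genes out of 18193 genes measured, and used names only, not values. Of the 49 genes, 47 encode proteasome subunits, activators, assembly factors or an inhibitor, and 2 (Psmc3ip and Psme3ip1) match by name alone. Psme2 is annotated only together with its copy Psme2b on 1 probe set and is not among them. RNA was measured on 4 Affymetrix mouse arrays. CD4+CD8+ double-positive (DP) cells, a stage of thymocyte that has both co-receptors before it settles on one lineage, came from normal thymus of wild-type mice (2 arrays) and from peripheral tumours, described as thymoma, that over-express Notch1-IC (2 arrays). Notch1-IC is the intracellular, active part of the Notch1 receptor. The genotype of the tumour samples is labelled T-ALL (T-cell acute lymphoblastic leukaemia), and the background of both groups is C57/BLACK6. The sources used here do not say how Notch1-IC was introduced, how old the mice were, their sex, or whether replicates are different mice. P-values therefore rest on the spread between these samples alone, pooled in part over genes of similar level, and that spread may be technical.

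The proteasome is the protease that destroys ubiquitin-tagged proteins and produces most of the peptides shown on MHC class I. Its core is a barrel of stacked rings: outer rings of alpha subunits that gate the entry, and inner rings of beta subunits, of which Psmb5, Psmb6 and Psmb7 carry the constitutive active sites. In blood cells, and in other cells exposed to interferon, Psmb8, Psmb9 and Psmb10 can take the places of Psmb5, Psmb6 and Psmb7 in newly built cores, which gives the immunoproteasome. The regulatory particle caps the core, and its ATPases (Psmc) unfold substrates while other subunits (Psmd) bind and remove ubiquitin. Cortical epithelial cells of the thymus build a further form with Psmb11.

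Psmb9 lies next to the peptide transporter gene Tap1 on chromosome 17, followed by Psmb8 and Tap2, in the MHC. The 225 bases that separate the starts of Psmb9 and Tap1, which are read in opposite directions, are shown because both transcripts were higher in the tumour arrays while those of the neighbours Psmb8 and Tap2 were lower. Shorter stretches are shown for Psmb8, Psmb10 and Psmb5, whose transcripts took different courses. All are from RefSeq (GRCm38.p6), written 5′ to 3′ on the strand of the proteasome gene and upstream of its start. Capitals mark matches to the searched motifs, which were an inverted CCAAT box, a STAT motif, an E-box and an antioxidant response core, in the order of the sequences.
Psmb9 and Tap1, chr17:34187331-34187555, minus strand: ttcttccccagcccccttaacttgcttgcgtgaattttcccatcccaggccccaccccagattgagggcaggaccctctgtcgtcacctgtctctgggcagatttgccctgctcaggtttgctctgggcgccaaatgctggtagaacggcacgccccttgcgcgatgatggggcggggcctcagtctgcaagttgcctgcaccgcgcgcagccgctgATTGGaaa
Psmb8, chr17:34198068-34198136, plus strand: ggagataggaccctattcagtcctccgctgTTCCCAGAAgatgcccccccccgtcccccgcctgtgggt
Psmb10, chr8:105938473-105938538, minus strand: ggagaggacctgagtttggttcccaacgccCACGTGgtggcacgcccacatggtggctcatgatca
Psmb5, chr14:54618004-54618072, minus strand: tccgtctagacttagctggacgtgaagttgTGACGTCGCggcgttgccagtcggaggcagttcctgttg
The table of starts matched 41 of the 49 genes, and the 250 bases before each start were searched on both strands. No matches of different motifs overlapped. The antioxidant response core, the site of the proteasome gene activator Nfe2l1, was written as TGACNNNGC or TGAGNNNGC. The first form was in 5 of the 41 upstream regions (12.2%) and in 10.1% of all 27025, and the second in 9 (22%) and 14.2%. The interferon response core, which is GAAA, then NN, then GAAA, was in 3 of the 41 (Psmb3, Psmd4 and Psmd9), or 7.32% against 3.04% of all. The STAT core TTCNNNGAA was in 2 (4.88% against 7.18%), the CCAAT box in 15 (36.6% against 34.5%) and the E-box CACGTG in 4 (9.76% against 6.05%). These matches describe letters in this window only.

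Notch1 lay at log2 intensities of 10.11 and 10.10 on the normal and 12.80 and 12.65 on the tumour arrays, and rose by 2.62 ± 0.074 (adjusted p = 3.09e-08). All 8 measured DP markers, Cd4 and Cd8a among them, were above background on all 4 arrays. In the tumour arrays 6 of them were lower, by log2 differences from -0.97 (Rag1) to -2.75 (Cd8a), with Cd8b1 at -2.19 and Cd4 at -2.09. Ptcra was higher (1.72 ± 0.081, adjusted p = 4.8e-07) and Cd3e was not called (-0.22 ± 0.11, adjusted p = 0.163). The beta-actin control gave a ratio of 3′ to 5′ signal of 1.28 and 1.2 in the normal arrays and 2.46 and 2.53 in the tumour arrays, and the Gapdh control 0.91 and 0.90 against 1.84 and 1.85. The bacterial hybridization controls lay 0.60 (log2) higher in the tumour arrays. Scaling to those controls lowers every log2 fold change by that amount, and calls that it ends or turns are given with the genes or in the closing section. Tissue site and transformation cannot be told apart. In such bulk samples, fewer cells of a type and less RNA per cell also cannot be told apart.

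Proteasome transcripts did not move as a block on their most intense probe sets and the scale as deposited. Of the 49 genes, 16 were higher and 15 lower in tumour DP cells at an adjusted p below 0.05 (limma with a trend and robust prior), and 18 were not called. The same fit called 29.7% of all genes, 17.3% higher and 12.4% lower. Most members are well expressed (47 of the 49 have a mean log2 intensity of at least 7), and among the 6364 genes at that level 60.3% were called. The members' share of 63.3% is near that background. The median log2 fold change was -0.04 over the members, 0.09 over all genes and 0.03 over the 6364. The groups of arrays did not overlap for 41 of the 49, 20 higher and 21 lower, a share of 83.7% beside 60% of all genes and 83.1% of the 6364. With limma's default prior, which does not let the prior spread vary with level, 0 members were called, beside 6.38% of all genes. Of the members, 17 then had an unadjusted limma p below 0.05, and the lowest adjusted p was 0.0548. With the bacterial controls as the scale, 1 member was higher (Psma8) and 36 were lower. The split also depends on the kind of probe set, as given below. With plain _at probe sets alone, 14 of 43 members were higher and 18 lower, with a median of -0.30.

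**Figure D1:**
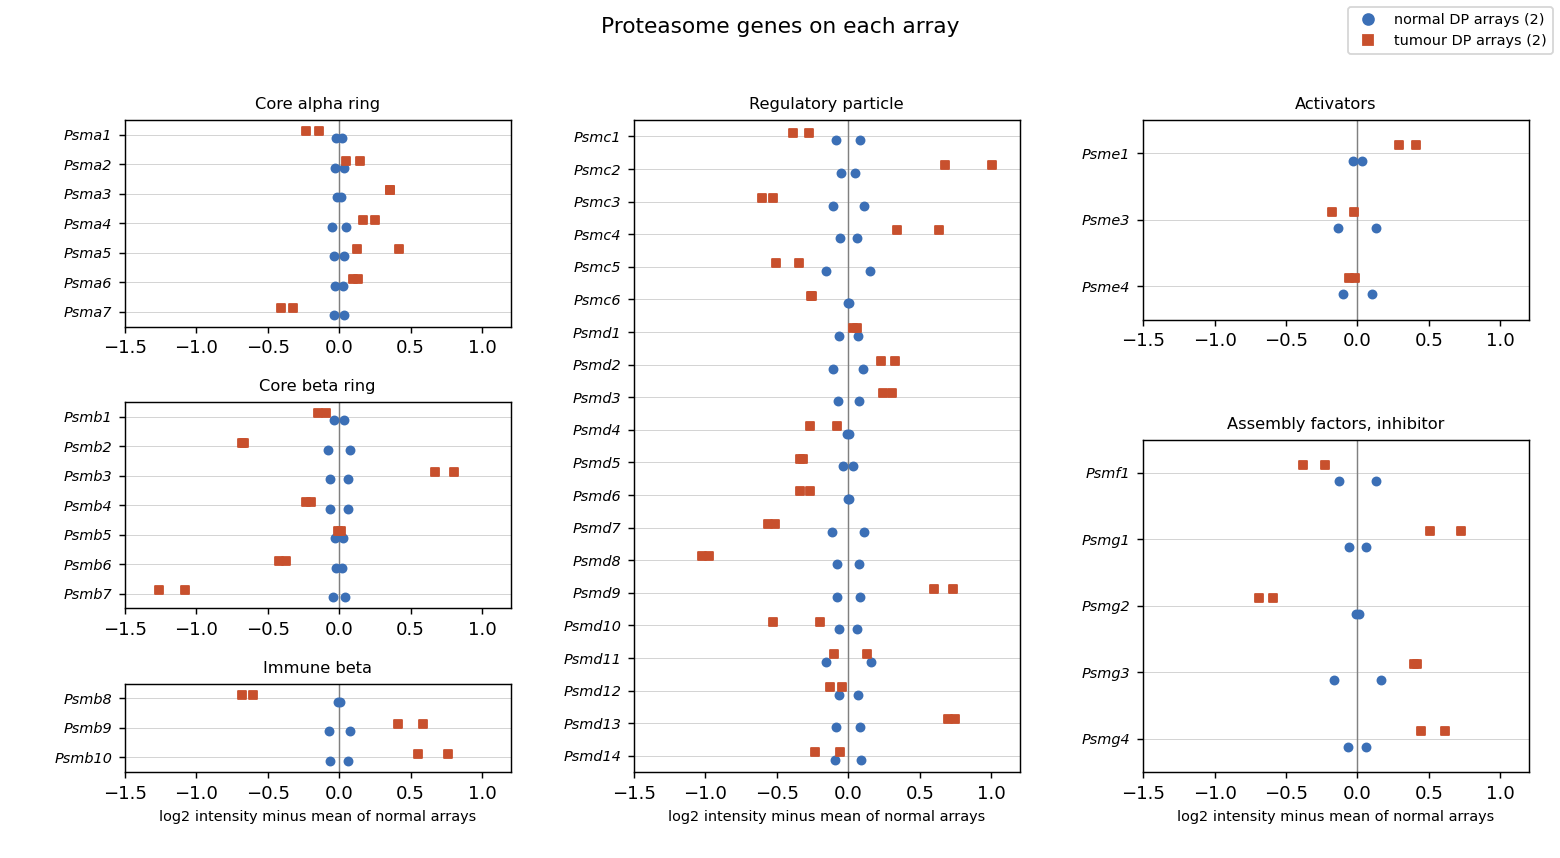
Log2 intensity of 45 proteasome genes on each array, as the distance from the mean of the 2 normal arrays (horizontal axis), by role in the complex; circles are normal and squares tumour arrays. The tumour squares of Psmb7 and Psmd8 lie farthest to the left and those of Psmc2, Psmb3 and Psmd13 farthest to the right. Psma8 and Psmb11, which were near or below background on normal arrays, are left out.

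**Figure D2:**
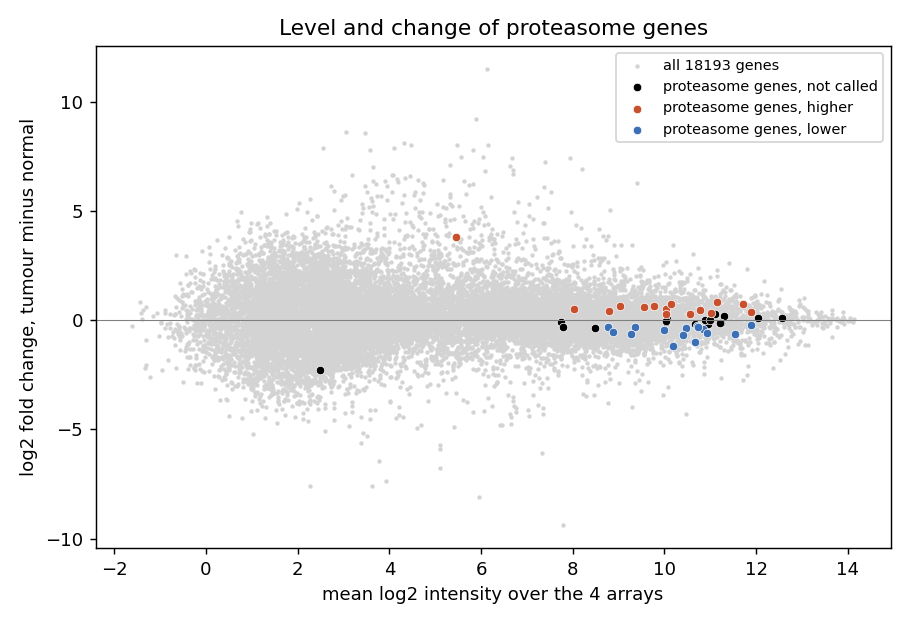
Mean log2 intensity over the 4 arrays (horizontal) against the log2 fold change (vertical) for 18193 genes in grey and 47 proteasome genes in colour by call. Most proteasome genes sit to the right, where changes are small, with called members on both sides of zero; Psma8, which was below background on 1 normal array, is plotted at 3.79, and Psmb11, at or below background on all arrays, lies to the lower left.

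The calls of 6 genes held under every alternative tried other than the default prior. They were Psma8, which rose, and Psmb2, Psmb6, Psmb7, Psmc3 and Psmd8, which fell. A further 4 calls, the rises of Psmb9, Psmb10, Psmg1 and Psme3ip1, were ended or turned only by scaling to the bacterial controls. The genes of both lists each have a single plain probe set, so averaging probe sets or keeping plain ones could not change their values. Scaling to the bacterial controls lowers all differences and could only enlarge the falls. For genes with several probe sets, the mean took in also those at or below background. Of the 31 calls, 14 ended when 1 of the 4 arrays was left out. The members behind these counts are given below by role.

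Among the active-site subunits, the constitutive genes Psmb7 and Psmb6 fell, Psmb9 and Psmb10 rose, and Psmb8 fell. Psmb7, the trypsin-like site of the constitutive core, lay at 10.81 and 10.72 on the normal and 9.69 and 9.51 on the tumour arrays. It fell by 1.17 ± 0.091 (adjusted p = 9.79e-06), to a level 2.25-fold lower. Both tumour arrays were well below both normal arrays. Its immune counterpart Psmb10 lay at 9.51 and 9.39 on the normal and 10.21 and 10.005 on the tumour arrays and rose by 0.66 ± 0.10 (adjusted p = 0.000744), with no overlap of the groups. The pair thus moved in opposite directions.

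Psmb6, the caspase-like site, lay at 11.03 and 11.07 on the normal and 10.63 and 10.67 on the tumour arrays and fell by 0.40 ± 0.071 (adjusted p = 0.00203). Psmb9, its immune counterpart, lay at 9.85 and 9.70 on the normal and 10.36 and 10.19 on the tumour arrays and rose by 0.50 ± 0.096 (adjusted p = 0.00294). The 2 arrays of each group stayed apart for both genes. Psmb5, the chymotrypsin-like site, lay at 10.90 and 10.85 on the normal and 10.89 and 10.87 on the tumour arrays. Its difference was 0.0043 ± 0.071 (adjusted p = 0.977), or -0.60 with the bacterial controls, and the arrays overlapped. Psmb8, the immune subunit that replaces Psmb5, lay at 11.86 and 11.85 on the normal and 11.25 and 11.17 on the tumour arrays. It fell by 0.64 ± 0.065 (adjusted p = 5.7e-05), against the direction of Psmb9 and Psmb10. Of these 6 genes only Psmb8 had another probe set, which is dimmer (6.04 to 6.43) and gave 0.25 ± 0.22 (adjusted p = 0.512). The mean of both gave a Psmb8 difference of -0.19 (adjusted p = 0.21), so its fall rests on the more intense probe set.

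Within each array, the log2 ratio of an immune subunit to its counterpart was set against its mean over the normal arrays. Psmb10 over Psmb7 rose by 1.84 and 1.81 in the tumour arrays, with the normal arrays at 0.02 and -0.02, a 3.54-fold shift. Psmb9 over Psmb6 was 1.01 and 0.79 higher, with the normal arrays at 0.09 and -0.09 (1.86-fold). Psmb8 over Psmb5 went the other way, at -0.62 and -0.67 against -0.02 and 0.02 (1.56-fold). The tumour arrays lay outside the normal ones for all 3 ratios. An exact permutation test of 2 arrays against 2 cannot give a two-sided p below 0.333, so these ratios were not tested further. Scaling between arrays does not alter such ratios. With the bacterial controls Psmb9 stood at -0.10 (adjusted p = 0.442) and Psmb10 at 0.06 (adjusted p = 0.71), so that only the ratio and not the rise of these genes was then seen. The difference between the groups in 3′ to 5′ control signal, given above, need not cancel in a ratio of different probe sets. Its part in these shifts was not tested.

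**Figure D3:**
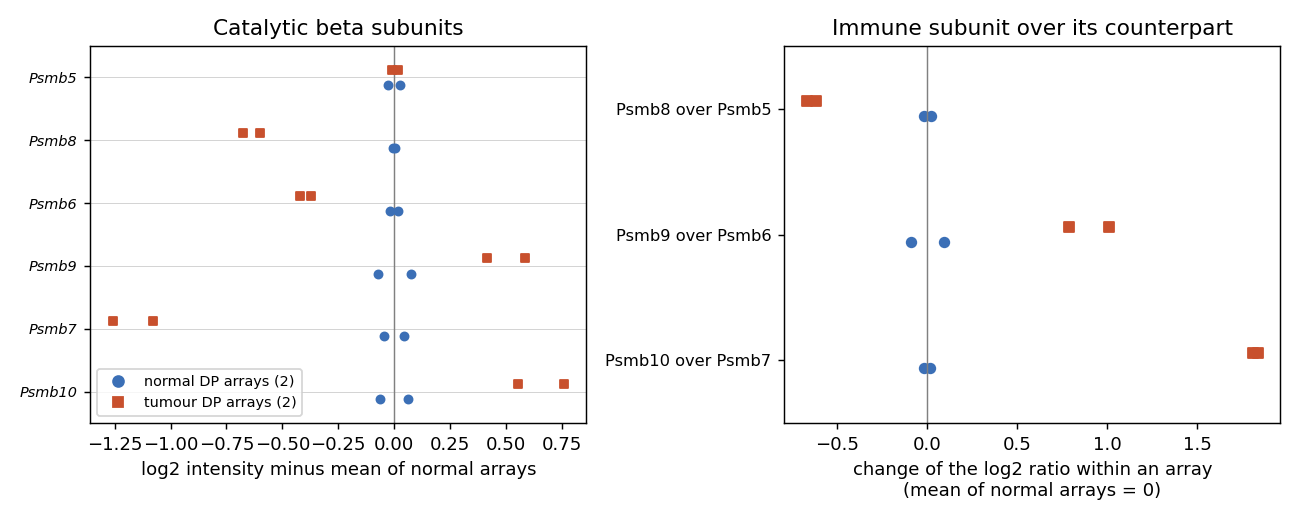
Left, log2 intensity of the constitutive and immune active-site subunits on each array, relative to the mean of the 2 normal arrays. Right, the change of the log2 ratio of each immune subunit to its counterpart within an array: the 2 tumour squares lie near 1.8 for Psmb10 over Psmb7, near 0.9 for Psmb9 over Psmb6 and near -0.6 for Psmb8 over Psmb5.

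Among the other beta subunits, which shape the ring without an active site, 2 fell, 1 rose and 1 was not called. Psmb2 lay at 10.83 and 10.67 on the normal and 10.07 and 10.08 on the tumour arrays and fell by 0.67 ± 0.083 (adjusted p = 0.000192). Psmb4 lay at 12.07 and 11.94 on the normal and 11.81 and 11.77 on the tumour arrays and fell by 0.21 ± 0.066 (adjusted p = 0.0368), a small difference. Its call ended without normal replicate 1 (-0.15), without tumour replicate 1 (-0.23) or without tumour replicate 2 (-0.19), with adjusted p up to 0.215, and the mean of its probe sets gave 0.20 (adjusted p = 0.304). Psmb1 lay at 11.27 and 11.34 on the normal and 11.21 and 11.16 on the tumour arrays, and its difference was -0.12 ± 0.069 (adjusted p = 0.262). The only plain probe set of Psmb1 is dim and was above background on 3 of the 4 arrays. Psmb3 rose on its most intense probe set, by 0.74 ± 0.074 (adjusted p = 5.07e-05), and fell on another, as given below. The bacterial controls as the scale gave 0.14 (adjusted p = 0.151), and the mean of its probe sets gave -0.011 (adjusted p = 0.942). Psmb11, the thymic epithelial subunit, was listed at intensities of 13.6 and 11.3 on the normal and 8.50 and 0.77 on the tumour arrays, at or below the background level of each array (12.3 to 17.8), so no fold is given.

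Most of the alpha ring was not called on its most intense probe sets. Over Psma1 to Psma7 the median log2 fold change was 0.11, with 1 gene higher, 1 lower and 5 not called. The median was turned by scaling to the bacterial controls, and Psma2, Psma4, Psma5 and Psma6 went from positive differences to lower. The negative differences of Psma1 and Psma7 were lowered by the same 0.60. Psma3 rose on its most intense probe set by 0.35 ± 0.060 (adjusted p = 0.00139), from 11.69 and 11.72 on the normal and 12.06 and 12.07 on the tumour arrays. Psma3 with the bacterial controls stood at -0.25 (adjusted p = 0.0106), and with the mean of its probe sets at -0.65 (adjusted p = 0.00452). Psma7 lay at 10.63 and 10.70 on the normal and 10.26 and 10.34 on the tumour arrays and fell by 0.36 ± 0.079 (adjusted p = 0.006), and its other probe set fell too (-0.47). Without tumour replicate 1 the Psma7 difference was -0.32 (adjusted p = 0.0753). Psma1, at 11.04 and 11.08 on the normal and 10.91 and 10.82 on the tumour arrays, differed by -0.19 ± 0.073 (adjusted p = 0.0854). Less intense probe sets, above background on all 4 arrays, were lower for Psma1 (-1.76, adjusted p = 0.000297), Psma5 (-0.39, adjusted p = 0.02) and Psma6 (-0.50, adjusted p = 0.00439).

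Psma8, an alpha subunit of the testis form of the core, was above background on 1 of the 2 normal arrays and on both tumour arrays. Its single probe set was listed at intensities of 17.8 and 7.82 on the normal arrays, where the background levels were 15.95 and 12.28, and at 155 and 173 on the tumour arrays. Both tumour arrays were far above both normal ones. With values raised to background Psma8 rose by 3.47. The values as listed gave 3.79 ± 0.40 (adjusted p = 7.55e-05), a size that rests in part on a normal value below background, and 3.19 with the bacterial controls. Leaving out each array gave 3.20 to 4.39, with adjusted p from 0.000284 to 0.00512.

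All 6 ATPases of the regulatory particle were called on their most intense probe sets, 4 lower and 2 higher. Psmc3 lay at 11.33 and 11.11 on the normal and 10.69 and 10.61 on the tumour arrays and fell by 0.57 ± 0.088 (adjusted p = 0.000826), with no overlap. Psmc5 lay at 10.35 and 10.04 on the normal and 9.85 and 9.69 on the tumour arrays and fell by 0.43 ± 0.11 (adjusted p = 0.0182). Its normal arrays were 0.31 apart, and the difference dropped out of the calls without normal replicate 1 (-0.27, adjusted p = 0.151) or tumour replicate 2 (-0.34, adjusted p = 0.163). Psmc1 and Psmc6 fell by 0.33 and 0.26. A second probe set of Psmc1, which enters the mean of its probe sets, was at or below background on all 4 arrays. Psmc1's adjusted p rose above 0.05 without normal replicate 2 or either tumour array (up to 0.199) and with the mean of its probe sets (0.811), and that of Psmc6 whichever array was left out (0.0708 to 0.135) and with the mean of its probe sets (0.16). Psmc2 lay at 10.67 and 10.77 on the normal and 11.40 and 11.72 on the tumour arrays and rose by 0.84 ± 0.10 (adjusted p = 0.000198). Psmc4 lay at 10.48 and 10.60 on the normal and 10.87 and 11.17 on the tumour arrays and rose by 0.49 ± 0.10 (adjusted p = 0.00516). Each of these also had a probe set that fell, as given below. Scaled to the bacterial controls, Psmc2 stood at 0.24 (adjusted p = 0.138) and Psmc4 at -0.12 (adjusted p = 0.487). With the mean of their probe sets they stood at 0.27 (adjusted p = 0.576) and -0.016 (adjusted p = 0.921). Without normal replicate 1 or tumour replicate 2 the Psmc4 difference was 0.43 or 0.34 and was not called (adjusted p up to 0.0715).

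Of the 11 other subunits of the regulatory particle, 3 were higher, 3 lower and 5 not called. Psmd8, a lid subunit, lay at 11.25 and 11.10 on the normal and 10.20 and 10.15 on the tumour arrays. It fell by 1.00 ± 0.081 (adjusted p = 1.28e-05), so that the tumour level was about 2.00-fold lower, and its arrays agreed closely within groups. Psmd7, a partner of the deubiquitinase Psmd14, lay at 9.26 and 9.04 on the normal and 8.58 and 8.63 on the tumour arrays and fell by 0.54 ± 0.11 (adjusted p = 0.00479). Without normal replicate 1 the Psmd7 difference was -0.43 (adjusted p = 0.0513), and the mean of its probe sets gave -0.55 (adjusted p = 0.209). A less intense Psmd7 probe set fell too (-1.16, adjusted p = 0.0106). Psmd6 fell by 0.30, a call that ended without normal replicate 1 or either tumour array (adjusted p up to 0.107) or with the mean of its probe sets (-0.10).

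Psmd13, another lid subunit, lay at 9.87 and 9.71 on the normal and 10.54 and 10.49 on the tumour arrays and rose by 0.72 ± 0.088 (adjusted p = 0.00018), but not on plain probe sets, which are dim (-0.62, adjusted p = 0.49), nor with the bacterial controls (0.12, adjusted p = 0.306) or the mean of its probe sets (-0.13, adjusted p = 0.705). Psmd2, a large scaffold of the base, and Psmd3, of the lid, rose by 0.28 each, Psmd3 from 9.98 and 9.83 on the normal and 10.15 and 10.21 on the tumour arrays and Psmd2 from 10.32 and 10.53 on the normal and 10.75 and 10.65 on the tumour arrays. Both calls ended in 3 of the 4 fits that left out an array, without either tumour array and without normal replicate 1 for Psmd2 (0.17) or normal replicate 2 for Psmd3 (0.20), and both genes were lower with the bacterial controls (-0.32 and -0.33). The mean of its probe sets turned Psmd2 to -0.17 (adjusted p = 0.89), but the other probe set in that mean was at or below background on all 4 arrays. Psmd14, the deubiquitinase itself, differed by -0.14 ± 0.088 (adjusted p = 0.289), and Psmd1, Psmd4, Psmd11 and Psmd12 were not called either on their most intense probe sets, with differences of -0.17 to 0.05. Second probe sets, above background on all 4 arrays, were lower for Psmd4 (-0.84, adjusted p = 9.72e-05) and higher for Psmd11 (0.42, adjusted p = 0.00597). Psmd1 and Psmd11 went from positive differences to lower with the bacterial controls (-0.55 and -0.58). The negative differences of Psmd4, Psmd12 and Psmd14 were lowered by the same 0.60. The median over the 17 subunits was -0.14.

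The factors that assemble the proteasome were divided as well. Psmg1, a chaperone of the alpha ring, lay at 9.30 and 9.18 on the normal and 9.96 and 9.75 on the tumour arrays and rose by 0.61 ± 0.10 (adjusted p = 0.00142), or 0.01 with the bacterial controls (adjusted p = 0.942). Its partner Psmg2 lay at 9.57 and 9.59 on the normal and 8.99 and 8.90 on the tumour arrays and fell by 0.64 ± 0.094 (adjusted p = 0.00058). A less intense probe set of Psmg2 gave 0.07 (adjusted p = 0.822), and the mean of its probe sets -0.28 (adjusted p = 0.27). Psmg4 and Psmg3, a further chaperone pair, rose by 0.53 and 0.41, with Psmg4 at 7.71 and 7.83 on the normal and 8.38 and 8.22 on the tumour arrays. The Psmg4 call ended without normal replicate 1 (0.47) or tumour replicate 1 (0.45), and the Psmg3 call without normal replicate 2 (0.24) or either tumour array. With the bacterial controls they stood at -0.07 and -0.20, and with the mean of their probe sets at -0.40 and -0.41, and were not called. The other probe set in the Psmg4 mean was at or below background on all 4 arrays, and that of Psmg3 above it on all 4.

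Of the chaperones of the regulatory particle base, Psmd9 lay at 8.79 and 8.62 on the normal and 9.44 and 9.31 on the tumour arrays and rose by 0.67 ± 0.11 (adjusted p = 0.00102). With the bacterial controls it stood at 0.07 (adjusted p = 0.678), and the mean of its probe sets gave 0.17 (adjusted p = 0.585). Psmd5 fell by 0.33 ± 0.10 (adjusted p = 0.0384), a call that ended whichever array was left out (-0.36 to -0.29, adjusted p up to 0.162). Psmd10, which is on the X chromosome, lay at 8.60 and 8.72 on the normal and 8.46 and 8.13 on the tumour arrays, and its difference was -0.36 ± 0.14 (adjusted p = 0.0764). On the same tumour arrays Xist, which coats the inactive X chromosome, lay at or below background, at least 375-fold lower than on normal arrays (limma adjusted p = 7.54e-09). The Y-linked Eif2s3y was above background on all 4 arrays, at 8.18 and 8.43 on the normal and 10.25 and 10.14 on the tumour arrays. The sex make-up of the samples and group thus cannot be told apart, for Psmd10 or any other gene. Psmf1, an inhibitor of the core, lay at 8.07 and 7.81 on the normal and 7.56 and 7.72 on the tumour arrays and differed by -0.30 ± 0.15 (adjusted p = 0.174). Less intense Psmf1 probe sets, above background on all 4 arrays, went the other way without being called. They gave 0.55 (adjusted p = 0.0828) and 0.37 (adjusted p = 0.421).

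Among the activators, which open the gate of the core, only Psme1 was called. It encodes a subunit of the interferon-inducible PA28 ring, lay at 10.87 and 10.81 on the normal and 11.13 and 11.25 on the tumour arrays and rose by 0.35 ± 0.075 (adjusted p = 0.0054). Without tumour replicate 2 the Psme1 difference was 0.29 (adjusted p = 0.0848), and with the bacterial controls it was -0.25 (adjusted p = 0.0277). Psme3, the nuclear PA28 subunit, lay at 7.93 and 7.67 on the normal and 7.78 and 7.63 on the tumour arrays and differed by -0.10 ± 0.15 (adjusted p = 0.701), and another of its probe sets was higher (0.65 ± 0.19, adjusted p = 0.0362). Psme4, the PA200 activator, lay at 9.95 and 10.16 on the normal and 10.04 and 9.996 on the tumour arrays and differed by -0.038 ± 0.094 (adjusted p = 0.826), with overlap, while a less intense probe set was lower (-0.82 ± 0.19, adjusted p = 0.011). Of the name matches, Psme3ip1, which encodes a partner of Psme3, rose by 0.43 ± 0.086 (adjusted p = 0.00408) (-0.17 with the bacterial controls), and Psmc3ip, a recombination factor, differed by -0.012 ± 0.14 (adjusted p = 0.965), while a second probe set of it was lower (-0.66, adjusted p = 0.0133).

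Probe sets of the same gene often disagreed. Tested over all 45037 probe sets (22.8% called), calls of both signs within 1 gene were found in 4 of the 27 members with several probe sets (14.8%, against 4.31% of the 9010 such genes overall). They were Psma3, Psmb3, Psmc2 and Psmc4. For Psmb3, the more intense probe set lay at 11.42 and 11.29 on the normal and 12.16 and 12.03 on the tumour arrays and the other at 10.86 and 10.90 on the normal and 10.19 and 10.05 on the tumour arrays, so that the first rose by 0.74 ± 0.073 (adjusted p = 6.42e-05) and the second fell by 0.76 ± 0.083 (adjusted p = 0.000121). For Psmc2, the more intense probe set rose by 0.84 ± 0.10 (adjusted p = 0.000264) and another fell by 0.72 ± 0.082 (adjusted p = 0.000163). For Psmc4 the pair gave 0.49 ± 0.10 and -0.52 ± 0.087, and for Psma3 0.35 ± 0.059 and -1.65 ± 0.25, the last on a much less intense probe set.

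In all 4 genes the probe set that rose was of the _a_at or _x_at class, which may bind several transcripts, and the one that fell was a plain _at probe set. Over the 14 members with both kinds above background on all arrays, the most intense _a_at, _s_at or _x_at probe set gave the higher fold change in 12 (85.7%, median difference 0.63). Over all 2095 such genes this was so in 62.1% (median difference 0.23). Calls of opposite sign within these pairs were found in 4 of the 14 members and in 105 of the 2095 genes. The plain probe sets of members above background gave a median of -0.33, with 9 of 49 higher and 20 lower (18.4% and 40.8%), against 20.6% and 22.5% of the 11800 plain probe sets overall. Their counterparts gave -0.004, with 5 of 30 higher and 6 lower. With plain probe sets alone the median was -0.47 over the constitutive core (-0.06 with the most intense probe sets) and -0.43 over the regulatory particle (-0.14). The ratio of 3′ to 5′ control signal also differed between the groups, as given above, and its part in the disagreement was not tested.

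**Figure D4:**
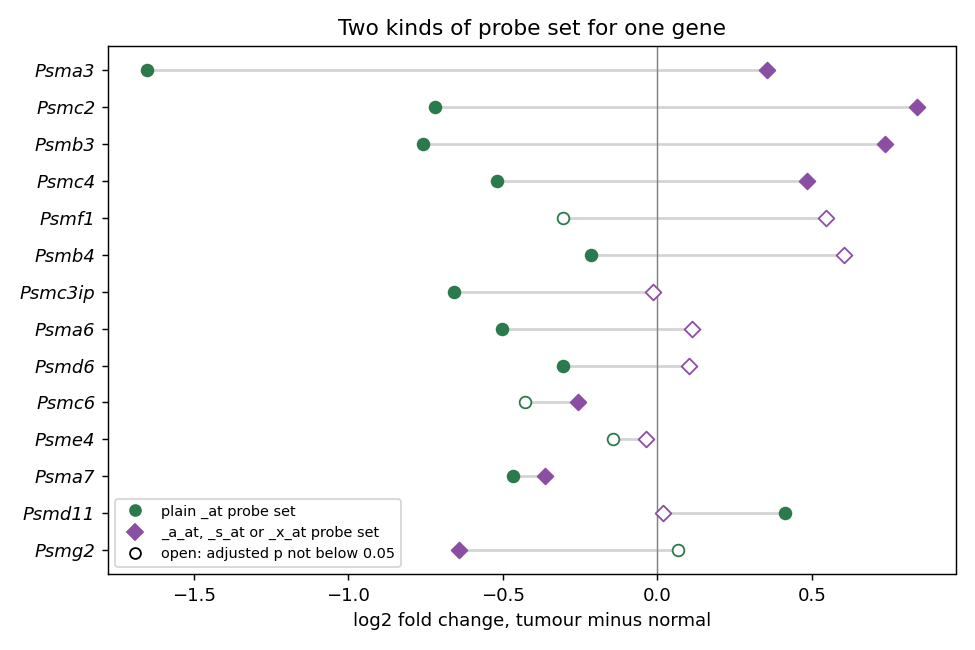
Log2 fold change of the most intense plain _at probe set (circles) and of the most intense _a_at, _s_at or _x_at probe set (diamonds) of 14 members, for probe sets above background on all arrays; filled symbols have an adjusted p below 0.05. In 12 of the 14 genes the diamond lies to the right of the circle, and for Psma3, Psmc2, Psmb3 and Psmc4 filled symbols lie on both sides of zero.

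Genes that serve the proteasome without belonging to the complex by name were mostly not called. Of 22 measured genes on a list of maturation, shuttle and control factors, 5 were higher, 3 lower and 14 not called, with a median of 0.04. The share called was 36.4%, beside 29.7% of all genes and 60.3% of those at or above 7 in mean log2 intensity. Ubqln4, a shuttle for ubiquitinated proteins, lay at 7.74 and 7.63 on the normal and 8.82 and 8.72 on the tumour arrays and rose by 1.09 ± 0.12 (adjusted p = 9.88e-05), though the mean of its probe sets gave 0.61 (adjusted p = 0.0654). Txnl1, a thioredoxin of the regulatory particle, rose by 0.94 ± 0.083 (adjusted p = 2.19e-05), but plain probe sets gave -0.02 (adjusted p = 0.926). Nfe2l1, the transcription factor that induces proteasome genes when activity is short, lay at 7.40 and 7.46 on the normal and 8.41 and 7.94 on the tumour arrays and rose by 0.75 ± 0.17 (adjusted p = 0.00822). Without normal replicate 1 or tumour replicate 1 the Nfe2l1 difference was 0.72 or 0.51 (adjusted p up to 0.0789), and with the bacterial controls 0.15 (adjusted p = 0.57). Ecpas, a proteasome-binding scaffold, rose by 0.63, or 0.02 with the bacterial controls and 0.44 with the mean of its probe sets, neither of them called.

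Akirin2, which carries proteasomes into the nucleus, lay at 10.94 and 11.03 on the normal and 10.27 and 10.31 on the tumour arrays and fell by 0.69 ± 0.076 (adjusted p = 8.94e-05). The mean of its probe sets gave -0.30 (adjusted p = 0.73). Ngly1, which processes Nfe2l1, fell by 0.38 ± 0.089 (adjusted p = 0.00887), a call that ended without normal replicate 2 (-0.33) and without either tumour array (adjusted p up to 0.0686). The unfoldase Vcp fell by 0.25 ± 0.080 (adjusted p = 0.0379), and without normal replicate 1 or either tumour array its adjusted p was 0.152 to 0.225. Pomp, the maturation factor of the core, lay at 11.34 and 11.33 on the normal and 11.33 and 11.33 on the tumour arrays and differed by -0.0068 ± 0.065 (adjusted p = 0.959). With the bacterial controls, 2 of the 22 were higher and 15 lower.

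Genes of MHC class I antigen presentation other than those of the proteasome rose in part. Of 12 on the list, 8 were higher and 2 lower, with a median of 0.37. The share called was 83.3%, beside 29.7% of all genes and 60.3% of those at or above 7 in mean log2 intensity. Leaving out normal replicate 2 left 4 higher and leaving out any other array 5, with 2 lower each time. With the bacterial controls these numbers were 3 and 5, and the median was -0.23. Tap1, the transporter gene that shares the printed region with Psmb9, lay at 9.41 and 9.34 on the normal and 10.06 and 9.94 on the tumour arrays and rose by 0.62 ± 0.090 (adjusted p = 0.000542), or by 0.02 with the bacterial controls. Its mean over probe sets gave 0.06 (adjusted p = 0.968). Tap2, next to Psmb8, lay at 10.77 and 10.68 on the normal and 9.95 and 9.90 on the tumour arrays and fell by 0.80 ± 0.079 (adjusted p = 4.91e-05). Pdia3, which joins tapasin in the loading complex, fell by 0.58, but the mean of its probe sets gave -0.11 (adjusted p = 0.787). Along this stretch Psmb9 and Tap1 were thus higher and Psmb8 and Tap2 lower. Tapbp (tapasin), Nlrc5, the activator of MHC class I genes, and H2-K1 rose by 1.03, 1.96 and 0.89, and remained higher with the bacterial controls.

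Genes of interferon receptors and their kinases, listed with transcription factors and Nlrc5, were split. Of 12, 5 were higher and 4 lower, a share of 75% beside the same 29.7% and 60.3%. The higher ones were Irf1, Irf2, Irf8, Irf9 and Nlrc5. Nlrc5 is on this list and on the presentation list and is counted as higher in both. Without normal replicate 1 or tumour replicate 2, 3 were higher, and with the bacterial controls 3 were higher and 6 lower. The transcription factor Irf1 lay at 8.37 and 8.23 on the normal and 10.02 and 9.82 on the tumour arrays and rose by 1.62 ± 0.11 (adjusted p = 4.34e-06). Irf8 rose by 2.17 ± 0.30 (adjusted p = 0.000405). The kinase Jak1 lay at 11.34 and 11.21 on the normal and 9.68 and 9.66 on the tumour arrays and fell by 1.60 ± 0.080 (adjusted p = 6.8e-07), or by 0.64 with the mean of its probe sets. The interferon gamma receptor chain Ifngr1 fell by 1.36 ± 0.079 (adjusted p = 1.68e-06). Ifngr2 fell by 1.24, a call that ended without either normal array (adjusted p up to 0.0763) and with the mean of its probe sets (-1.05).

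Markers of several other cell types were higher on the tumour arrays, as were Psmb9 and Psmb10, while Psmb8 was lower. The summed intensity of 12 macrophage markers was 118 to 159 on the normal and 2072 to 2182 on the tumour arrays, with 8 of the 12 higher and 0 lower, and 3 above background on both normal arrays against 9 on both tumour arrays. The 9 neutrophil markers summed to 195 to 260 and 2157 to 2208 (7 higher), and the 10 dendritic cell markers to 355 to 389 and 1148 to 1395 (5 higher). The higher dendritic cell markers were Cd74, H2-Aa, H2-Ab1, H2-Eb1 and Itgax, while Flt3, Batf3, Xcr1, Siglech and Ccr7 were not called. The 5 B cell markers summed to 336 to 371 and 111 to 139 (1 lower), and the 4 erythroid ones to 24.5 to 32.1 and 122 to 156 (1 higher). The lower B cell marker was Cd79b (log2 8.33 and 8.20 on the normal and 5.70 and 5.99 on the tumour arrays). Cd79a and Pax5 lay at or below background on all 4 arrays. Of 8 cortical thymic epithelial markers, 2 were higher (Krt18 and Ly75) while Psmb11 lay at or below background on all 4 arrays and Foxn1 on 3. The part of these cells in the values of Psmb9, Psmb10, Psme1, Tap1, Nlrc5 and Irf8 was not tested.

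**Figure D5:**
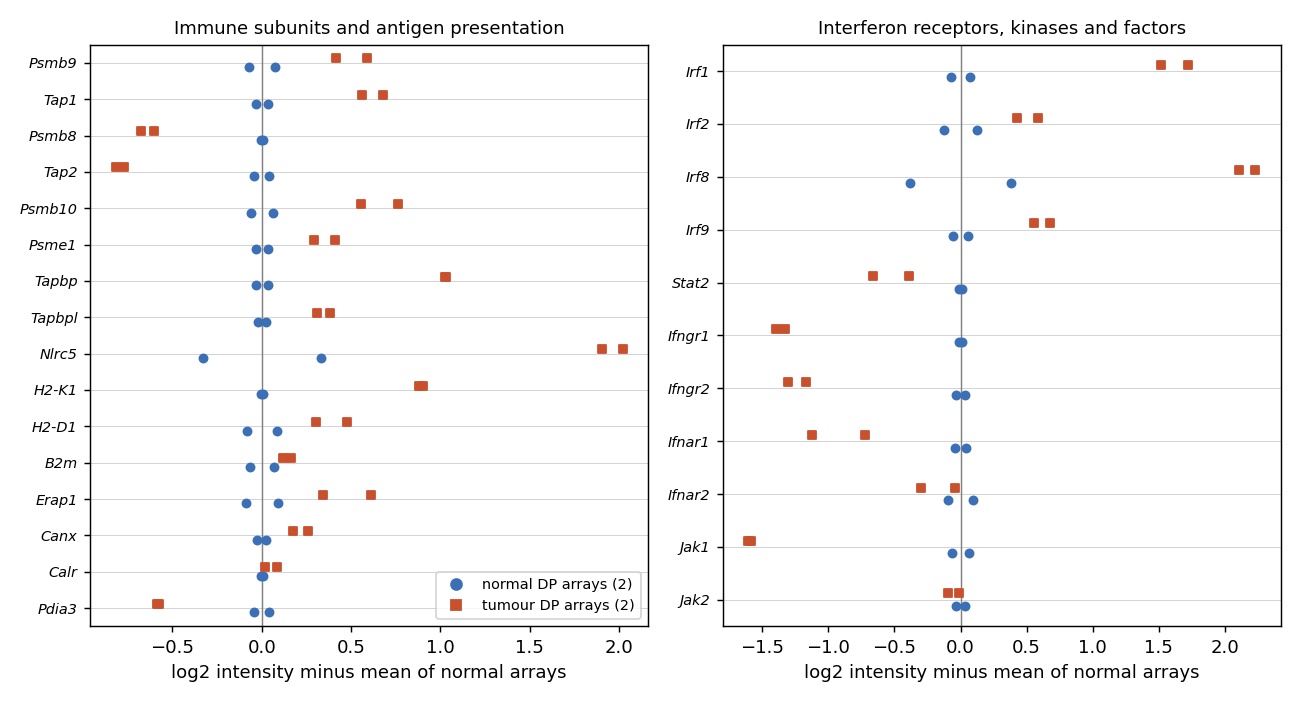
Log2 intensity on each array relative to the mean of the 2 normal arrays, for immune subunits with antigen presentation genes (left, the first 4 in their order on the chromosome) and for interferon receptors, kinases and transcription factors (right). Tumour squares lie right of zero for Psmb9 and Tap1 and left of zero for Psmb8 and Tap2; Irf1 and Irf8 lie far right and Jak1 and the interferon gamma receptor genes far left.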

How the data were processed

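Gene expression was measured on 4 Affymetrix arrays from 100 ng of RNA each. The authors deposited 1 intensity per probe set, on a linear scale; RMA is named, without a version, per the submitters' processing notes. Values were turned to log2. Each gene was read from its most intense probe set with a single symbol in the platform annotation, control probe sets left out. Tumour and normal arrays were compared with limma 3.58.1 in R 4.3.3 (lmFit, eBayes with a trend and robust prior), with Benjamini-Hochberg adjustment over 18193 genes and a threshold of 0.05. All adjusted p-values are limma's, and values after ± are its moderated standard errors. The prior adds the spread of other genes at a similar level to that of the gene itself (median prior degrees of freedom 7.23). Background was the highest bacterial control probe set (dap, lys, phe, thr, trp) of each array, 12.3 to 17.8 intensity units, and 51.0% to 59.0% of probe sets lay above it. The 2 arrays per group limit the precision. Simulated data for this comparison covered 18193 genes, with the changed genes drawn only from those at a mean log2 intensity of at least 7. With 3000 changed genes, 55.2%, 90.9% and 99.4% of changes of 0.5, 1 and 2 (log2) were recovered, with 54 to 115 false calls. With 200 changed genes, 0%, 39.5% and 90% were recovered, with 0 to 6 false calls. The default prior recovered 0%, 75.4% and 97.2% with 3000 changed genes and 0% with 200.

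The members, gene lists and tests were chosen with earlier results of these data known. Per-array values are given for the active-site subunits, the activators, Psmb11, and the 2 highest and 2 lowest members of each other role; members that fell, or whose probe sets were called in opposite directions, are also named, with up to 4 called genes per direction of the associated and presentation lists. The genes of the interferon list were named after their values were seen. Alternatives covered the prior, scaling, low values, choice of probe set, threshold, replicate block and leaving out each array. One label describes all 4 samples as tumour, while title, source and genotype call 2 of them normal; the latter were used.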

Additional observations from a re-analysis of the deposited data

How the results depend on the processing

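With limma's default prior, 759 genes were higher and 401 lower, 0 members were higher and 0 lower (17 with an unadjusted p below 0.05), and 0 and 0 associated genes were called. Scaled to the bacterial hybridization controls, 1330 genes were higher and 5250 lower, 1 and 36 members, and 2 and 15 associated genes; medians were -0.64 over members, -0.66 over the constitutive core, -0.10 over immune subunits and -0.74 over the regulatory particle. That scaling also turned Psma2 (-0.50), Psma3 (-0.25), Psma4 (-0.39), Psma5 (-0.33), Psma6 (-0.49), Psmb5 (-0.60), Psmb9 (-0.10), Psmc4 (-0.12), Psmd1 (-0.55), Psmd2 (-0.32), Psmd3 (-0.33), Psmd11 (-0.58), Psme1 (-0.25), Psme3ip1 (-0.17), Psmg3 (-0.20) and Psmg4 (-0.071), by construction. Averaging the probe sets of each gene, 1865 genes, 7 members and 3 associated genes were higher and 9 members lower, with medians of -0.14 over members and -0.18 over the core, and reversed values for Psma3 (-0.65), Psmb1 (0.68), Psmb3 (-0.011), Psmb4 (0.20), Psmc4 (-0.016), Psmd2 (-0.17), Psmd13 (-0.13), Psmg3 (-0.41) and Psmg4 (-0.40). With plain probe sets only, 3 associated genes were higher, medians were -0.30 over members, -0.47 over the core and -0.43 over the regulatory particle, and reversed values were those of Psma3 (-1.65), Psma6 (-0.50), Psmb1 (1.77, on a dim probe set below background on 1 normal array), Psmb3 (-0.76), Psmc2 (-0.72), Psmc4 (-0.52), Psmd13 (-0.62) and Psmg2 (0.069). The averages took in probe sets at or below background on all 4 arrays for Psmd2 and Psmg4, and on some arrays for Psmb1 and Psmd13. The cause of these probe set differences was not tested. At a threshold of 0.01, 9 members were lower. Leaving out 1 array at a time gave 9 to 12 members lower, 1 to 2 associated genes lower, and medians of -0.077 to -0.037 over the core and -0.23 to -0.053 over the regulatory particle. The replicate numbers pair no samples by their labels; differences between replicates 1 and 2 correlated at 0.25 between the groups, and a fit with the replicate block called 18 members higher and 17 lower, and 3469 and 2554 genes.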
